A study of Mus musculus with 12 samples.

Results

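Interleukin-10 (IL-10) was present in the protein given to 6 of the 12 tumors of the series and absent from the protein given to the other 6, and the genes that separated these tumors are described here. The 6 tumors with IL-10 were 3 treated with BF10 and 3 treated with IL-10-Fc. The 6 without it were 3 treated with an antibody that binds Csf1r, the receptor of colony stimulating factor 1 (aCSF1R) and 3 treated with a control isotype (IgG1-Fc, called control IgG). BF10 is the same kind of antibody with human IL-10 fused to its heavy chain, and IL-10-Fc is a recombinant IL-10 joined to an antibody Fc part, so the groups form a square design with IL-10 as 1 factor and the antibody as the other. The IL-10 main effect was the mean of BF10 and IL-10-Fc minus the mean of aCSF1R and control IgG. It is the average of a difference without the antibody (IL-10-Fc against control IgG) and a difference with it (BF10 against aCSF1R), which share no library. Every tumor came from cells of the line 4T1, a mouse mammary carcinoma, placed into the mammary tissue of Balb/c mice, and treatment began at a tumor volume of 100 mm3. The labels give 6 doses for every group, whereas the description of the series and the methods of the study give fewer, so the number of doses is uncertain. Each tumor gave 1 library, and the numbers after the group names are those of the sample titles. IL-10-Fc and BF10 differ in more than the antibody (carrier, size and dose by mass), and these parts cannot be told apart from the antibody factor.

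IL-10 is a cytokine that signals through a receptor made of Il10ra and Il10rb to the kinases Jak1 and Tyk2 and the transcription factor Stat3. In macrophages it is known for restraining inflammatory cytokines, and in activated CD8 T cells it can sustain cytotoxic function and interferon-gamma production. Csf1r is the receptor through which the ligands Csf1 and Il34 keep macrophages and osteoclasts alive, and antibodies against it are used to deplete macrophages from tumors. The treatments were proteins, so the Il10 transcript counted in a tumor is that of the mouse gene and not the drug.

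Levels are in TPM, transcript levels made by dividing each deposited FPKM value by the sum of its library so that all libraries have the same total, and differences are on the scale log2(TPM + 1), where 1 is a doubling and low genes are understated. A gene was called where limma gave an adjusted p (Benjamini-Hochberg) under 0.05 and the difference reached 1.5-fold. Tests covered the 15504 genes that reached 1 TPM in 3 or more libraries. Depth in reads is unknown from FPKM values, and 23012 to 25299 genes were above 0 in a library. The deposited FPKM sums split the libraries into 5 with higher sums (782919 to 921581) and 7 with lower sums (609695 to 648413). The higher-sum libraries were BF10 6, IL-10-Fc 7, aCSF1R 8 and control IgG 4 and 7. Mitochondrial transcripts made up 5.90% to 9.26% of their FPKM and 3.14% to 3.96% of that of the lower-sum libraries. With the groups held, 9180 genes (59.2%) were called between these sets. BF10 and aCSF1R held 1 higher-sum library each, but IL-10-Fc held 1 and control IgG 2, so the difference without the antibody carries part of the set difference. For that reason values with the library set as a term of the model (the set term) are given beside many of the calls and list medians that it alters. With the set term the median of all genes was 0.09 in the main effect and 0.10 without the antibody. The median IL-10 difference of all genes was 0.22 in log2(TPM + 1) and -0.01 after scaling by the median of ratios, so small positive differences are read against 0.22.

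With IL-10, 21 genes rose and 1 fell among the 15504 tested (0.142% called). The rises were 0.135% of genes and the fall 0.00645%, and 687 genes (4.43%) had an unadjusted p below 0.05. The 21 included Atp6v0d2, Ocstamp, Oscar and Dcstamp, known from osteoclasts, and Msr1, Lair1, C1qc, Fcgr1 and Aif1, known from macrophages. The single gene that fell was Tmsb15a, a beta-thymosin, whose mean TPM was under 2. All 22 calls were also calls with the library set as a term, a fit that called 211 genes higher and 5 lower (1.39%). The calls rested on few libraries, since leaving out any library other than aCSF1R 8 reduced their number to between 2 and 11. Msr1 and Lair1 stayed called without each of the 12 libraries in turn. Scaling by the median of ratios called 31 genes, all higher, of which 4 (Atp6v0d2, Ocstamp, Oscar and Ctsc) were among the 22. Under that scaling the 21 rises had differences of 0.74 to 2.14, with adjusted p of 0.031 to 0.84 in limma. Msr1 and Lair1 were not called there (adjusted p = 0.28 and 0.11), nor in the fit with no interaction term (0.80 for both).

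The arms of the design, without and with the antibody, contributed unequally. Without the antibody 0 genes rose and 1 fell (0.00645% called, 224 at an unadjusted p below 0.05 in limma, and 3 rises and 1 fall or 0.0258% with the set term). With the antibody 114 genes rose and 0 fell (0.735% called, 661 or 4.26% at an unadjusted p below 0.05 in limma, and 429 rises and 8 falls or 2.82% with the set term). All 21 rises of the main effect were called with the antibody, with a median difference of 3.08, whereas their median without it was 0.00. The interaction, which is the test of the difference between the arms, called 45 genes (0.29%), 44 of them more positive with the antibody, and leaving out any library other than aCSF1R 8 or control IgG 5 reduced these to between 10 and 23. Of the 21 rises, 15 were called in the interaction, with differences of 2.34 to 4.13 with the antibody and -0.85 to 0.14 without it. The remaining 6 (Atp6v0d2, Ocstamp, Oscar, Dcstamp, Mmp12 and Ctsc) were not, and had 2.45 to 3.30 with the antibody and 0.38 to 1.53 without it. Ocstamp, Oscar and Dcstamp were near 0 TPM in aCSF1R, where log2(TPM + 1) understates the difference with the antibody and so the interaction. With a pseudocount of 0.1 the main effect of Ocstamp was 3.41, against 2.11. A missing interaction call therefore does not show that the arms were equal. Pearson's r between the arms was 0.15 across the 15504 genes, which are not independent and share the annotation and the scaling.

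**Figure D1:**
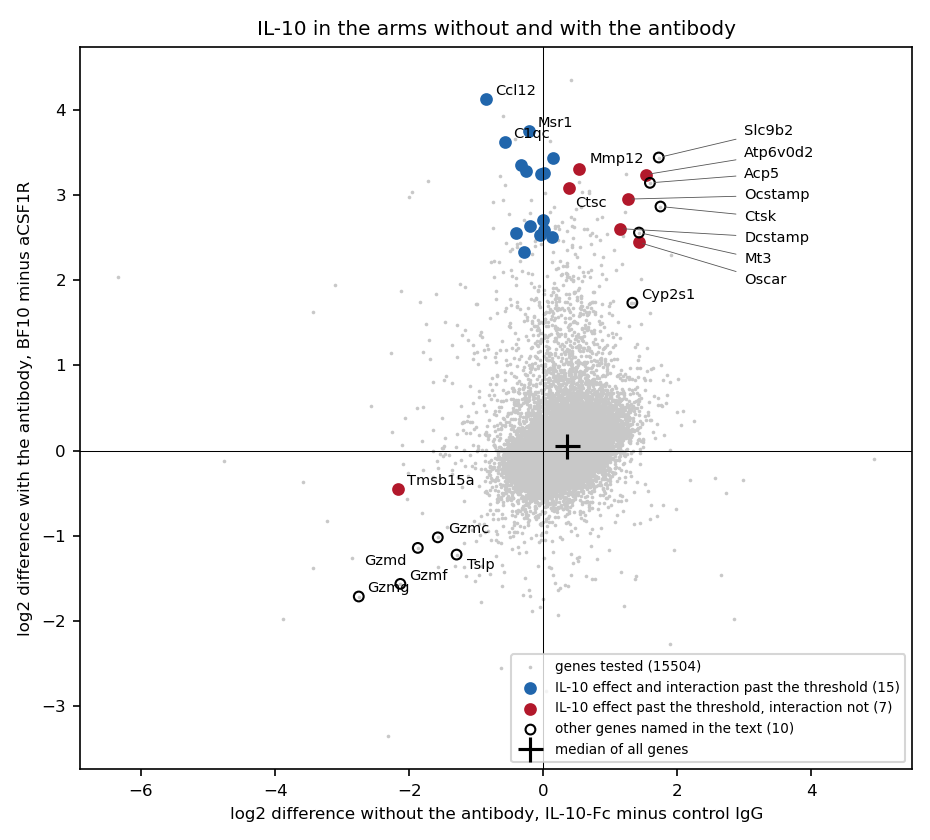
Each point is a gene, with its log2 difference without the antibody (IL-10-Fc minus control IgG) on the x axis and with it (BF10 minus aCSF1R) on the y axis. The 15 blue points (main effect and interaction called) stand at 2.34 to 4.13 on the y axis and near 0 on the x axis, 7 red points were called in the main effect and not in the interaction, open circles are other named genes, and the cross marks the median of all genes (0.35 and 0.06).

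By the smallest p in both arms, the leading genes among those higher with IL-10 in each were Ocstamp, Oscar, Cyp2s1, Atp6v0d2 and Mt3. Ocstamp, Oscar and Atp6v0d2 are known from osteoclasts, the multinucleated bone-resorbing cells of the macrophage lineage. In bulk tissue these transcripts do not name the cell that made them, and whether osteoclasts were present was not tested. Taken at an unadjusted p below 0.05 in each arm with the same sign, 11 genes were higher (0.0709% of genes) and 6 lower (0.0387%). In 32 genes (0.206%) the 6 tumors with IL-10 all lay above the 6 without it, and in 9 (0.058%) all lay below. Of the 21 rises of the main effect, 4 had no overlap between 6 and 6 tumors, namely Atp6v0d2, Ocstamp, Oscar and Dcstamp.

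Ocstamp, a membrane protein needed for the fusion of osteoclast precursors, had 4.43, 2.78 and 1.19 TPM in control IgG 4, 5 and 7 and 6.78, 6.62 and 9.48 TPM in IL-10-Fc 2, 4 and 7. It had 0.26, 0.098 and 0.022 TPM in aCSF1R 4, 6 and 8 and 12.3, 6.48 and 5.64 TPM in BF10 3, 6 and 7. The lowest tumor with IL-10 stood above the highest control, and the aCSF1R tumors had next to none of the transcript. The difference was 2.11 ± 0.27 (SE, 6 against 6 tumors, adjusted p = 0.017), with 1.26 ± 0.38 without the antibody and 2.95 ± 0.38 with it. The interaction was not called (adjusted p = 0.84), but at the low aCSF1R levels the scale understates the difference with the antibody. The call was kept without 6 of the 12 libraries, left out in turn, and over these 12 fits the difference was 1.93 to 2.26.

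Atp6v0d2, a subunit of the proton pump that osteoclasts use to acidify bone and also a partner in their fusion, gave 6.18, 5.10 and 1.11 TPM in control IgG and 11.1, 12.3 and 12.9 TPM in IL-10-Fc. Its levels were 0.585, 0.509 and 0.477 TPM in aCSF1R and 28.01, 9.15 and 9.18 TPM in BF10. BF10 3 was far above the other tumors with IL-10, and the 6 tumors with IL-10 still did not overlap the 6 without. It had the largest difference of the 21 rises, 2.39 ± 0.36 (adjusted p = 0.044), made of 1.53 ± 0.51 and 3.24 ± 0.51 in the arms. With any 1 library left out it no longer passed the threshold (0 of 12 such fits).

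Oscar, a collagen receptor that costimulates osteoclast formation, was at 1.51, 1.83 and 0.288 TPM in control IgG, 4.87, 4.18 and 4.83 TPM in IL-10-Fc, 0.146, 0.115 and 0 TPM in aCSF1R and 11.1, 2.65 and 3.69 TPM in BF10. Its difference was 1.94 ± 0.31 (adjusted p = 0.047), and it was called in 1 of 12 fits lacking a library. Dcstamp, the partner of Ocstamp in cell fusion, was at 3.62, 1.75 and 0.976 TPM in control IgG and 4.51, 4.57 and 7.75 TPM in IL-10-Fc. In aCSF1R it was at 0.293, 0.492 and 0.043 TPM and in BF10 at 12.1, 5.52 and 4.35 TPM, a difference of 1.87 ± 0.29 (adjusted p = 0.046) that was called in 0 of 12 such fits. For both genes the aCSF1R tumors were lowest, control IgG lay between, and the IL-10-Fc and BF10 tumors overlapped each other.

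Cyp2s1, a cytochrome P450 enzyme, and Mt3, a metallothionein that binds zinc and copper, shared the pattern without passing the threshold. Cyp2s1 differed by 1.53 ± 0.30 (adjusted p = 0.13, and 0.011 with the set term) and Mt3 by 2.00 ± 0.36 (adjusted p = 0.088, and 0.019 with the set term). Among other genes known from osteoclasts, chosen after their values were seen, Ctsk and Acp5 were abundant. Ctsk, the collagen-degrading protease cathepsin K, was at 205, 131 and 32.2 TPM in control IgG, 257, 323 and 409 TPM in IL-10-Fc, 69.5, 40.02 and 31.2 TPM in aCSF1R and 763, 243 and 193 TPM in BF10. Only BF10 7 fell below the highest control value, and the difference was 2.31 ± 0.47 (adjusted p = 0.13, and 0.041 with the set term). Acp5, the tartrate-resistant acid phosphatase used to stain osteoclasts, was at 53.9 to 147 TPM in control IgG, 305 to 317 TPM in IL-10-Fc, 13.7 to 54.2 TPM in aCSF1R and 212 to 617 TPM in BF10. It was higher in 6 of 6 tumors with IL-10 than in any without, as in 0.206% of genes. The difference was 2.37 ± 0.41 (adjusted p = 0.083, 0.0077 with the set term and 0.031 after median of ratios scaling).

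**Figure D2:**
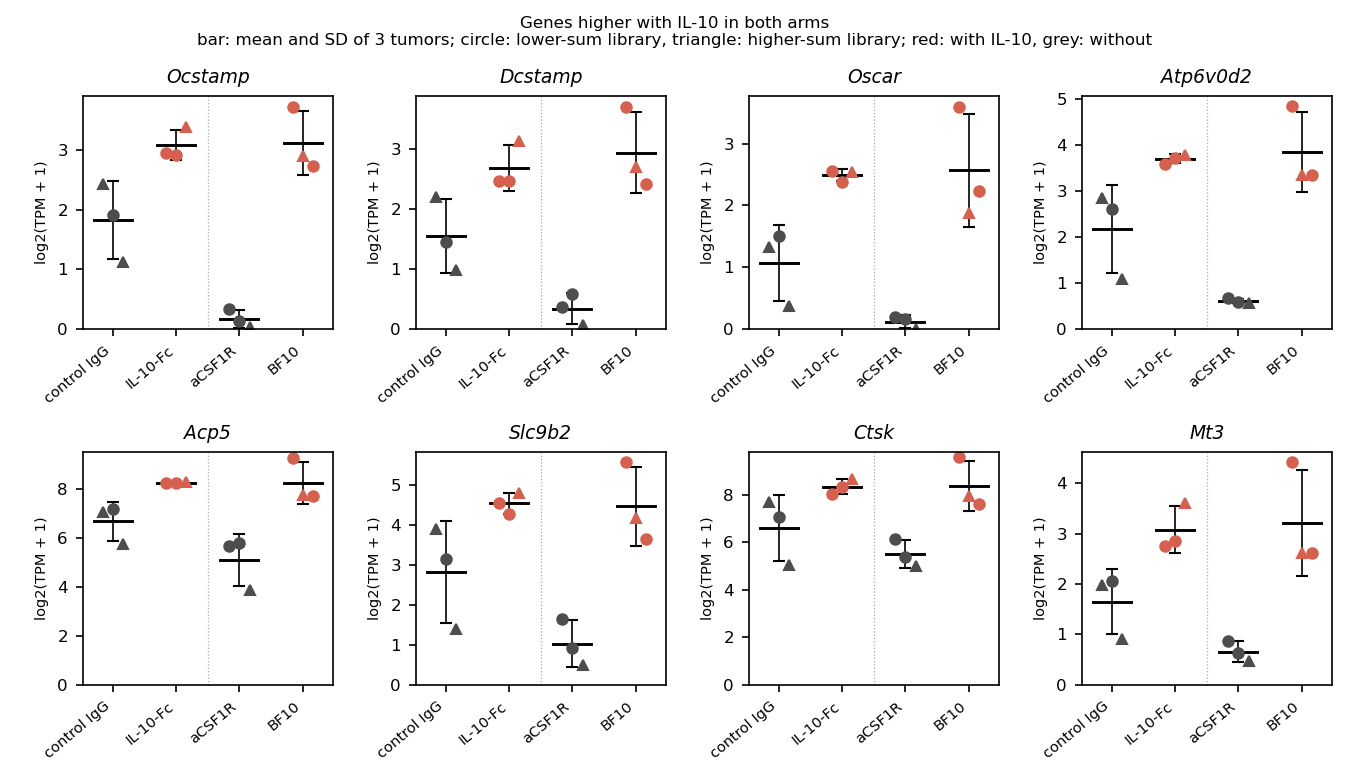
Each panel shows log2(TPM + 1) of a gene in the 12 tumors by group, with the mean and SD of 3 tumors, red for tumors given IL-10 and triangles for higher-sum libraries. In Ocstamp, Dcstamp, Oscar and Atp6v0d2 the 6 red points lie above the 6 grey ones, and the aCSF1R tumors are the lowest group in every panel.

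These genes lie on different chromosomes or far apart. In the coordinates of GRCm38, Ocstamp is at chr2:165393760-165400405 on the minus strand, Atp6v0d2 at chr4:19876841-19922605 on the minus strand, Dcstamp at chr15:39745930-39760938 on the plus strand and Oscar at chr7:3609813-3616157 on the minus strand. RefSeq upstream sequence on GRCm38.p6 was found for 11 of 14 genes looked up, not including Ocstamp, Dcstamp and Atp6v0d2. The 250 bases before the start of Oscar (chr7:3616158-3616407, minus strand) and Ctsk (chr3:95498960-95499209, plus strand) are shown. Of the 6 rising genes with a window, only these 2 held a match to a motif searched, so they were picked by that outcome. All windows were searched on both strands for GAGGAAG, letters bound by PU.1, a transcription factor of the myeloid lineage, and capitals mark the matches.
Oscar: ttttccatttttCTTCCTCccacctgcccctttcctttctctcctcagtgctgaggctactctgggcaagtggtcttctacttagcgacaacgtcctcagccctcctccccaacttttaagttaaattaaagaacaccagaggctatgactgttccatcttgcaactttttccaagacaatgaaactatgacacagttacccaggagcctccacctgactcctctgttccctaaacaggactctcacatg
Ctsk: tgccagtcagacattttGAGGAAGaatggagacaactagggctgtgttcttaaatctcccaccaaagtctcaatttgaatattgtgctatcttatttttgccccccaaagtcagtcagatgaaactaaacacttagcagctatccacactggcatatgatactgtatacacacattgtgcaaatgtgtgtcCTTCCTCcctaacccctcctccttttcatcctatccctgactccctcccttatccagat
Oscar held 1 match, at 238 to 232 bases before the start, and Ctsk held 2, at 233 to 227 and at 59 to 53 bases before it. Of 32851 promoters of this length 10.6% held a match. The letters TTCNNNGAA of STAT factors (in 7.02% of promoters), TGANTCA of AP-1 (6.75%) and CACGTG of the MiT family (6.02%) were not in the windows of Oscar or Ctsk, nor in those of Acp5, Slc9b2, Cyp2s1 and Mt3, which also held no GAGGAAG. Aligned in pairs, the windows of these 6 genes were 42.7% to 50.0% identical.

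Other rises, among them genes known from macrophages, were called in the interaction as well, and those described next were low in aCSF1R and high in the other groups. Msr1, a scavenger receptor, was at 148, 103 and 114 TPM in control IgG, 94.4, 96.6 and 123 TPM in IL-10-Fc, 7.59, 7.61 and 8.75 TPM in aCSF1R and 110.5, 145 and 108 TPM in BF10. The controls overlapped both groups with IL-10, and the low values were those of the 3 aCSF1R tumors. Its main effect of 1.77 ± 0.16 (adjusted p = 0.0028) was made of -0.21 ± 0.22 without the antibody and 3.75 ± 0.22 with it, and the interaction was 3.96 ± 0.31 (adjusted p = 0.0013). Lair1, an inhibitory collagen receptor of leukocytes, ran from 18.4 to 23.9 TPM in control IgG, from 22.9 to 26.3 TPM in IL-10-Fc, from 1.53 to 2.19 TPM in aCSF1R and from 26.8 to 32.7 TPM in BF10. Its main effect was 1.79 ± 0.16 (adjusted p = 0.0028), with 0.14 ± 0.23 and 3.43 ± 0.23 in the arms. In bulk tissue fewer cells of a type and less RNA per cell cannot be told apart.

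Ccl12, a chemokine that attracts monocytes, had the largest interaction of the named genes, 4.97 ± 0.51 (adjusted p = 0.0042). It was at 172, 109 and 114 TPM in control IgG and 58.03, 62.8 and 99.3 TPM in IL-10-Fc. All 3 tumors of IL-10-Fc lay below the controls (-0.85 ± 0.36), as in 1.78% of genes. In aCSF1R it was at 5.79, 2.53 and 3.77 TPM and in BF10 at 62.2, 127 and 73.9 TPM, a difference of 4.13 ± 0.36. C1qc, a chain of the complement starter C1q, was at 428 to 856 TPM in control IgG, 384 to 459 TPM in IL-10-Fc, 29.5 to 50.2 TPM in aCSF1R and 354 to 634 TPM in BF10. Its interaction was 4.20 ± 0.44 (adjusted p = 0.0042), that of C1qa 4.08 ± 0.53 (adjusted p = 0.012) and that of Slamf9, a receptor of the SLAM family, 3.87 ± 0.52 (adjusted p = 0.015). Clec5a, a myeloid lectin receptor, differed by 0.01 ± 0.35 without the antibody and 3.27 ± 0.35 with it. Mmp12, the macrophage metalloelastase, and Ctsc, the protease that activates granule serine proteases, stood between these and the genes known from osteoclasts. They had 0.53 ± 0.41 and 0.38 ± 0.39 without the antibody and 3.30 ± 0.41 and 3.08 ± 0.39 with it.

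The fixed list of macrophage markers showed the same levels. All 12 were higher in the main effect (76.6% of all genes were higher), 2 were called and 9 with the set term (1.36% of all genes), and their median difference was 1.56. That median was 0.35 without the antibody, equal to the median of all genes there, and 2.67 with it, against 0.06 for all genes. Their summed level was 2285 to 3514 TPM in control IgG, 2197 to 3796 in IL-10-Fc, 132 to 941 in aCSF1R and 2492 to 4174 in BF10. The 114 genes called with the antibody had a median of -0.06 without it, and 48 of them (42.1%) were above 0 there, where 79.7% of all genes were.

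No protein-coding gene with a mean TPM of at least 2 fell past the threshold with IL-10, and the genes with the smallest unadjusted p in that direction included a cluster of granzymes. Granzymes are proteases that cytotoxic lymphocytes release into target cells. Gzmc, Gzmd, Gzme, Gzmf and Gzmg lie side by side on chromosome 14 with Gzmb and Gzmn, and their products are close relatives. Gzmg was at 47.8, 143 and 47.4 TPM in control IgG and 5.97, 13.4 and 10.1 TPM in IL-10-Fc. It was at 25.4, 177 and 56.6 TPM in aCSF1R and 9.31, 18.6 and 36.8 TPM in BF10. All tumors of IL-10-Fc lay under all controls, as in 1.78% of genes, whereas BF10 and aCSF1R overlapped through BF10 7 and aCSF1R 4. The difference was -2.23 ± 0.51 (adjusted p = 0.22, and -2.30 with an adjusted p of 0.049 with the set term). Gzmf differed by -1.85 ± 0.50 (adjusted p = 0.39), Gzmd by -1.51 ± 0.48, Gzmc by -1.30 ± 0.44 and Gzme by -0.64 ± 0.41, and none of these was called.

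Because these genes are close relatives, the authors' counting could have split shared reads between them, so their sum is given too. Gzmc to Gzmg summed to 206, 548 and 177 TPM in control IgG, 44.7, 126 and 65.9 in IL-10-Fc, 135, 641 and 258 in aCSF1R and 73.7, 103 and 202 in BF10. IL-10-Fc and control IgG did not overlap, and BF10 and aCSF1R did through 1 tumor each. Control IgG 5 and aCSF1R 6 were the highest tumors in either arm. Gzmb, the granzyme most used as a marker of cytotoxic cells, differed by -0.07 ± 0.47 without the antibody and -1.36 ± 0.47 with it (adjusted p = 0.94 and 0.64). Of the 15 cytotoxic effectors listed, 7 were higher and 8 lower, 0 were called, and their median was -0.64. With the set term 1 was called lower (Gzmg), where 5 of all genes were. At an unadjusted p below 0.05 in limma 2 were higher and 5 lower, and 4.43% of all genes passed. Ccl5 (0.64 ± 0.40), Ifng (0.43 ± 0.18) and Nkg7 (0.43 ± 0.30) had positive differences, and Prf1, the pore-forming partner of granzymes, had -0.73 ± 0.64.

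The sequences before the starts of 4 of these granzymes are printed to show how alike these upstream windows are. They do not show how alike the counted transcripts are, which was not measured. Gzmd is at chr14:56132594-56132843, Gzme at chr14:56120626-56120875, Gzmf at chr14:56211408-56211657 and Gzmg at chr14:56159580-56159829, all on the minus strand of GRCm38.p6. Capitals again mark GAGGAAG or its complement.
Gzmd: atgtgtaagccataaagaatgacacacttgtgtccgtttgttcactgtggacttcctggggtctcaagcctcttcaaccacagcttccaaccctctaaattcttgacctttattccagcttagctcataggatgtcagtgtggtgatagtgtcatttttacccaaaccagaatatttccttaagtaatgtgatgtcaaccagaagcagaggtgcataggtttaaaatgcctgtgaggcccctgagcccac
Gzme: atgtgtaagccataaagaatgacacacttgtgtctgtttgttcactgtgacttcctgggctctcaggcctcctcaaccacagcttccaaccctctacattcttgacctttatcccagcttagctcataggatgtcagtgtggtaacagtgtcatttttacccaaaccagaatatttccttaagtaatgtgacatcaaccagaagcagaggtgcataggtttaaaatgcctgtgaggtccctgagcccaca
Gzmf: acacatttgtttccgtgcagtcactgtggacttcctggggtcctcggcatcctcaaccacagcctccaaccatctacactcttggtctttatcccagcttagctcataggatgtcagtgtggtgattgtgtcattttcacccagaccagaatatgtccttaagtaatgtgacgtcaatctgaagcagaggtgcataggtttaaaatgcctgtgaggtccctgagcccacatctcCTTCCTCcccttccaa
Gzmg: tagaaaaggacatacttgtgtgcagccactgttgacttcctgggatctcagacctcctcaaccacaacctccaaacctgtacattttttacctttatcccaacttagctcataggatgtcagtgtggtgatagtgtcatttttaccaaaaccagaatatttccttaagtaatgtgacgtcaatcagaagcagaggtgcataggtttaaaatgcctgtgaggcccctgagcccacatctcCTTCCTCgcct
Gzmd and Gzme were 94.8% identical in this window and the 5 granzymes with Gzmc 71.5% to 94.8%. Gzmf held a match at 16 to 10 bases before the start and Gzmg at 11 to 5. None of the other 3 motifs was found in these windows.

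Other genes lower with IL-10 in both arms were Tslp, Ogt and Cp. Tslp, an epithelial cytokine of allergic inflammation, was at 6.12, 8.94 and 4.47 TPM in control IgG, 2.26, 1.64 and 2.07 TPM in IL-10-Fc, 4.93, 14.4 and 5.04 TPM in aCSF1R and 1.53, 2.28 and 4.22 TPM in BF10. The 6 tumors with IL-10 lay below the 6 without, as in 9 genes (0.058%), with BF10 7 closest to the line. The difference was -1.26 ± 0.30 (adjusted p = 0.27, and 0.038 with the set term), and nearly equal in the arms at -1.29 ± 0.43 and -1.22 ± 0.43. Ogt, the enzyme that adds N-acetylglucosamine to proteins, was at 71.2 to 98.4 TPM with IL-10 and 110.4 to 140 TPM without. Its tumors also separated 6 from 6, with a difference of only -0.50 ± 0.14 (adjusted p = 0.41). Tslp and Ogt were picked by their p-values in limma, so their separation is a description. Cp, the copper carrier ceruloplasmin, differed by -1.31 ± 0.44, and BF10 3 was its lowest tumor at 37.9 TPM. Fcrl6, a receptor of cytotoxic lymphocytes that binds MHC class II, differed by -1.28 ± 0.31 (adjusted p = 0.27), with 2.73 to 8.11 TPM in control IgG and 0.393 to 0.493 TPM in IL-10-Fc but 0.91 to 4.59 and 0.438 to 1.16 TPM in aCSF1R and BF10. Col4a5, a collagen of basement membranes, and Zfp965, a zinc finger gene, had -0.98 ± 0.27 and -0.62 ± 0.22. Tmsb15a, the gene that fell, was at 4.83, 3.13 and 3.33 TPM in control IgG and at 0, 0 and 0.166 TPM in IL-10-Fc, but at 0.406 to 1.05 and 0 to 0.422 TPM in aCSF1R and BF10, a difference of -1.31 ± 0.17 (adjusted p = 0.017). It was made of -2.16 ± 0.23 without the antibody (adjusted p = 0.031) and -0.45 ± 0.23 with it, and the interaction was not called (adjusted p = 0.090, and 0.019 with the set term). In the arm without the antibody the call was lost without any library other than aCSF1R 8.

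**Figure D3:**
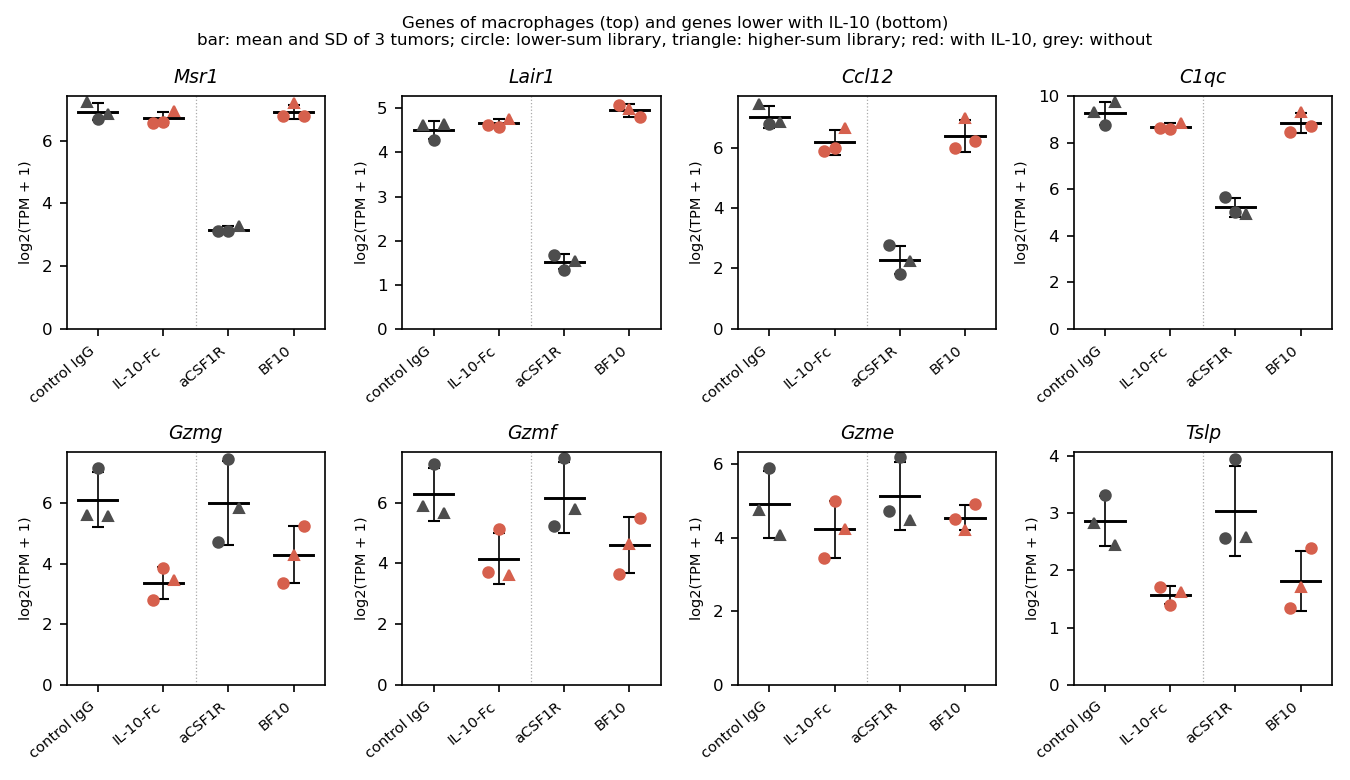
Each panel shows log2(TPM + 1) in the 12 tumors by group with the mean and SD of 3 tumors, red for tumors given IL-10 and triangles for higher-sum libraries. In the top row (Msr1, Lair1, Ccl12, C1qc) the aCSF1R tumors stand alone at the bottom, and in the bottom row (Gzmg, Gzmf, Gzme, Tslp) the red tumors are lower on average in both arms, with overlap in Gzmg, Gzmf and Gzme.

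The values of the named rises and falls had the same sign in both library sets. The higher-sum set has 1 library in each group but control IgG, which leaves 1 residual degree of freedom, so the single libraries are assumed to vary like the controls and its values are a description. Within the 7 lower-sum libraries the 10 largest rises had 1.48 (Ccl12) to 2.27 (Atp6v0d2), and within the 5 higher-sum libraries 1.35 (Clec5a) to 2.31 (Atp6v0d2). Gzmg had -2.82 and -1.84 and Tslp -1.58 and -0.95 in the lower-sum and higher-sum libraries. Fitted alone in limma, the lower-sum libraries called 1 gene and the higher-sum libraries 0, with 1846 and 4163 genes at an unadjusted p below 0.05.

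**Figure D4:**
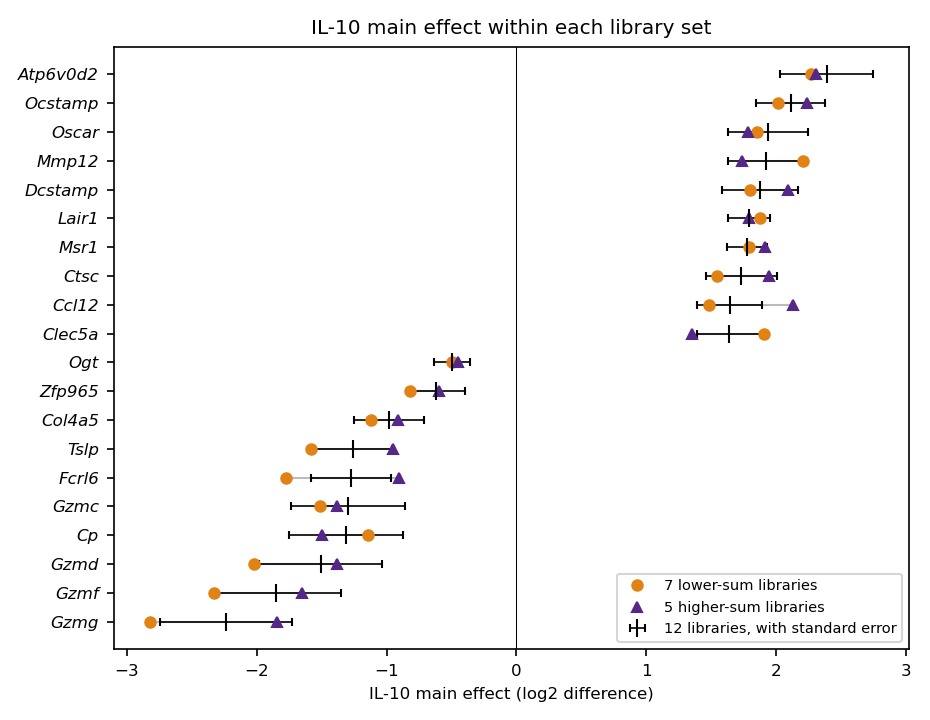
The IL-10 main effect in log2(TPM + 1) of 20 named genes within the 7 lower-sum libraries (circles) and the 5 higher-sum libraries (triangles), beside the value over 12 libraries with its standard error. Rises lie right of 0 and falls left of 0 in both sets for all 20 genes, with Gzmg at -2.82 and -1.84.

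The receptor for IL-10 and the pathway of Csf1r were measured directly. Il10 was low in all groups, at 1.16 to 3.15 TPM with IL-10 and 0.302 to 4.55 TPM without, with a difference of 0.13 ± 0.27 whose sign was not stable. Il10ra, the ligand-binding chain, was at 7.75, 16.7 and 8.56 TPM in control IgG, 14.2, 16.8 and 8.56 TPM in IL-10-Fc, 4.73, 3.74 and 0.51 TPM in aCSF1R and 19.8, 7.42 and 16.07 TPM in BF10. It followed the macrophage genes, with 0.27 ± 0.55 without the antibody and 2.06 ± 0.55 with it, and a main effect of 1.16 ± 0.39 (adjusted p = 0.78, and 0.012 with the set term, where the difference was 0.97). Il10rb, the shared chain, differed by 0.75 ± 0.48, Jak1 by 0.28 ± 0.28 and Tyk2 by 0.27 ± 0.42. Csf1r was at 18.8, 92.7 and 38.4 TPM in control IgG, 88.8, 89.8 and 36.4 TPM in IL-10-Fc, 20.6, 14.09 and 1.26 TPM in aCSF1R and 140, 26.7 and 101 TPM in BF10. The spread within groups was wide, and the main effect of 1.86 ± 0.64 had an adjusted p of 0.82, or 1.52 and 0.014 with the set term. Its ligands Csf1 (0.77 ± 0.68) and Il34 (0.17 ± 0.33) were not called.

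Genes known to respond to IL-10 through Stat3 gave no call in the main effect. Of 16 listed, 14 were higher and 0 were called in limma (1 with the set term, 3 at an unadjusted p below 0.05). Among all genes 1.39% were called with the set term and 4.43% had an unadjusted p below 0.05 in limma. The median was 0.53, which is 0.31 above that of all genes. With the set term the list median was 0.27, and that of all genes was 0.09. Fgl2, a prothrombinase-like protein of macrophages and T cells, was called with the antibody (1.66 ± 0.27, adjusted p = 0.017) and differed by 0.26 ± 0.27 without it. It was not called in the interaction (adjusted p = 0.46). With the antibody 3 of the 16 were called under the set term, as were 2.82% of all genes. Socs3, the feedback inhibitor induced by Stat3, differed by 0.45 ± 0.34, Bcl3 by 0.33 ± 0.36, Zfp36, which destabilises cytokine transcripts, by 1.02 ± 0.52 and Osmr, at the low end, by -0.18 ± 0.15. Of the 11 tested genes among 13 inflammatory mediators known as repressed by IL-10, 9 were higher, and the median was 0.65 (0.49 with the set term). Among them 0 were called (1 with the set term, 4 at an unadjusted p below 0.05, where the shares of all genes were 1.39% and 4.43%). Tnf differed by 0.65 ± 0.25, Ccl4 by 0.86 ± 0.26, Il1b by 0.16 ± 0.34 and Il6 by -0.05 ± 0.31. Nos2 had the largest difference (0.93 ± 0.79) and Cxcl1 the lowest (-0.68 ± 0.46). Il12a and Il12b were under the limit on low values.

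Interferon-gamma response genes had their higher values with IL-10 in the arm without the antibody. All 24 listed genes were higher in IL-10-Fc than in control IgG (79.7% of all genes were), 11 at an unadjusted p below 0.05 (1.44% of all genes), and their median was 0.86, or 0.51 above that of all genes. With the antibody 16 of 24 were higher (58.3% of all genes) and the median was 0.04, which is 0.01 below that of all genes. None was called in either arm, although Gbp5 was with the set term (1.07, adjusted p = 0.047), and the interaction called 0 of them, with 6 of 24 at an unadjusted p below 0.05 and 377 (2.43%) among all genes. Gbp5, a GTPase of cell-autonomous immunity, was at 17.5, 19.4 and 13.1 TPM in control IgG, 40.2, 45.3 and 33.4 TPM in IL-10-Fc, 36.9, 35.9 and 26.5 TPM in aCSF1R and 45.4, 32.4 and 46.7 TPM in BF10. Control IgG was lowest, and the other 3 groups overlapped. The summed level of the list repeated this, at 1288 to 1890 TPM in control IgG, 2256 to 3074 in IL-10-Fc, 2401 to 2942 in aCSF1R and 2128 to 3341 in BF10. Its relatives Gbp3, Gbp6 and Gbp9 had the smallest p among negative interactions and were not called, with 0.90 ± 0.22, 0.81 ± 0.25 and 0.42 ± 0.19 without the antibody and -0.05 ± 0.22, -0.25 ± 0.25 and -0.43 ± 0.19 with it. Cxcl9, a chemokine that recruits T cells, differed by 0.94 ± 0.37 and 0.78 ± 0.37 in the arms, and Ido1 was at the low end of the list in the main effect (-0.09 ± 0.31). With the set term the median of the list without the antibody was 0.59.

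Antigen presentation genes gave few calls. For MHC class I, 12 of 13 genes were higher without the antibody with a median of 0.70 (0.36 with the set term), 10 of 13 with it with a median of 0.17, and 0 were called (3 at an unadjusted p below 0.05 without the antibody and 0 with it). For MHC class II, 9 of 12 were higher without the antibody with a median of 0.71 (0.30 with the set term) and 11 of 12 with it with a median of 0.53. In the main effect 11 of 12 were higher with a median of 0.73 (0.54 with the set term). Ctss, a protease of macrophages, was the 1 called, where 2 were called with the set term (0.142% and 1.39% of all genes were called). Ctss differed by -0.41 ± 0.24 without the antibody and 2.56 ± 0.24 with it. Among complement genes, C1qa, C1qb and C1qc had the pattern of the macrophage genes, whereas C1s1 and Serping1, which mesenchymal cells also make, differed by 1.66 ± 0.49 and 1.69 ± 0.79 without the antibody and by 0.14 ± 0.49 and 0.31 ± 0.79 with it. Of the 16 complement genes 15 were higher in the main effect (76.6% of all genes were). In that effect 2 (C1qc and Cfp) were called and 5 with the set term, where 0.135% and 1.36% of all genes were called higher. The list median without the antibody was 0.90, or 0.45 with the set term. Of the 15 genes of the type I interferon response 8 were higher, 0 were called (0 at an unadjusted p below 0.05) and the median was 0.04, or -0.08 with the set term, with the highest value in Oas1a and the lowest in Ifit3.

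CD8 T cell markers were higher in 11 of 11 tested genes with a median of 0.42, which is 0.20 above that of all genes, and 0 were called (0 at an unadjusted p below 0.05). Cd8a differed by 0.58 ± 0.32, Cd3e by 0.60 ± 0.49 and Cd2 by 0.60 ± 0.37, and the summed level was 55.2 to 112 TPM in control IgG, 73.8 to 104 in IL-10-Fc, 41.7 to 78.8 in aCSF1R and 45.3 to 122 in BF10, so all groups overlapped. The expanded immune signature of 16 genes, a list of T cell and interferon genes that the study took from earlier work, had 13 higher, 0 called (2 at an unadjusted p below 0.05) and a median of 0.50. The medians were 0.45 for T cell exhaustion (8 of 10 higher), 0.21 for regulatory T cells (4 of 6) and -0.03 for NK cells (3 of 8), with 0 called in each in the main effect and 1, 0 and 1 at an unadjusted p below 0.05. With the set term, which called 1.39% of all genes, 1, 0 and 1 genes of these lists were called. Their medians were then 0.27, 0.08 and -0.05, and that of the CD8 T cell markers was 0.29. Klrk1, the activating receptor NKG2D, was called with the antibody (1.35 ± 0.26, adjusted p = 0.044) and differed by -0.07 ± 0.26 without it. B cell and plasma cell genes had a median of -0.30 that changed sign between library sets. Their sum was 1554 TPM in control IgG 7 and 82.6 to 487 TPM in the other libraries.

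Among other myeloid lists, neutrophil genes were higher in 15 of 16 with a median of 0.90 and 0 called (1 at an unadjusted p below 0.05). The median rested largely on 1 tumor, and without BF10 3 it was 0.22. The summed level of the list was 21080 TPM in BF10 3 and 2140 and 1341 in BF10 6 and 7, against 1052 to 4279 in aCSF1R. The median was 1.54 in the lower-sum and -0.05 in the higher-sum libraries. Mmp9, a gelatinase of neutrophils and osteoclasts, had the highest value of the list, 2.11 ± 0.69 (adjusted p = 0.76). Of 9 tested mast cell and basophil genes 0 were called, and 5 were lower with the antibody at an unadjusted p below 0.05 in limma (4.26% of all genes passed in either direction). In the interaction 3 were lower at that limit (2.43% of all genes passed). Mcpt4 had -1.94 ± 0.68 and Tpsb2 -1.58 ± 0.58 with the antibody, against 0.23 ± 0.68 and 0.32 ± 0.58 without it. The sum of the mast cell list was highest in aCSF1R, at 72.4 to 236 TPM, and 26.3 to 78.4 in the other groups, with an overlap. Monocyte genes had a median of 0.51 and dendritic cell genes 0.23 (0.09 with the set term), and 0 were called in the main effect (2 and 1 at an unadjusted p below 0.05). With the set term 1 of each was called, as were 1.39% of all genes. Of the monocyte genes Ccr2, the receptor that brings monocytes into tissue, was called with the antibody (2.44 ± 0.27, adjusted p = 0.0020) and in the interaction (3.00 ± 0.38, adjusted p = 0.012), and it differed by -0.56 ± 0.27 without the antibody. The 7 genes that the study names for IL-10 in another tumor were all higher (76.6% of all genes were), with a median of 0.95 (0.77 with the set term). Of them 0 were called (1 with the set term, which called 1.39% of all genes) and 5 had an unadjusted p below 0.05 in limma (4.43% of all genes). Mmp9, Stfa2 and Elane of this list are also in the neutrophil list. The summed level was 1353 TPM in BF10 3, 260.5 and 417.5 in BF10 6 and 7 and 131.5 to 340.3 in aCSF1R. The genes that the study names there for aCSF1R, with Clec4a taken as Clec4a1, Clec4a2 and Clec4a3 (6 of 7 tested), had medians of -0.09 without the antibody and 1.83 with it. With the antibody 3 of these were called, as were 0.735% of all genes.

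Tissue lists held 0 called genes each (1 of the fibroblast and 1 of the keratinocyte genes had an unadjusted p below 0.05). Medians in the main effect were 0.48 for fibroblasts (9 of 10 higher), 0.54 for endothelium (10 of 10), 0.38 for epithelium (8 of 9) and 0.40 for adipocytes (8 of 8). They were 0.44 for skeletal muscle (3 of 3), 0.47 for keratinocytes (3 of 3), 0.12 for erythrocytes (5 of 5), 0.14 for proliferation (10 of 10) and 0.20 for hypoxia and glycolysis (10 of 12). Secretory mammary genes had -0.64 from only 2 tested genes, and summed to 271 TPM in control IgG 7 but 2.76 to 17.1 TPM in the other libraries. With the set term the medians of endothelium, epithelium, adipocytes and hypoxia fell to 0.30, 0.14, 0.15 and 0.08, and those of erythrocytes and proliferation were 0.26 and 0.23. Fibroblast and adipocyte genes had 0.89 and 0.88 without the antibody (0.56 and 0.39 with the set term) and 0.31 and -0.11 with it. Acta2, the smooth muscle actin of myofibroblasts, led the fibroblast list with 1.38 ± 0.60. Epithelial markers of the tumor cells were present in every library, with sums of 768 to 2644 TPM. Eosinophil genes, with 3 tested, had a median of 0.08. Leaving out 1 library turned the sign of the medians of adipocytes (-0.32 to 0.75), erythrocytes (-0.05 to 0.32), secretory mammary genes (-1.05 to 0.05) and eosinophils (-0.38 to 0.34). The part of these tissue differences in the results above was not tested.

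**Figure D5:**
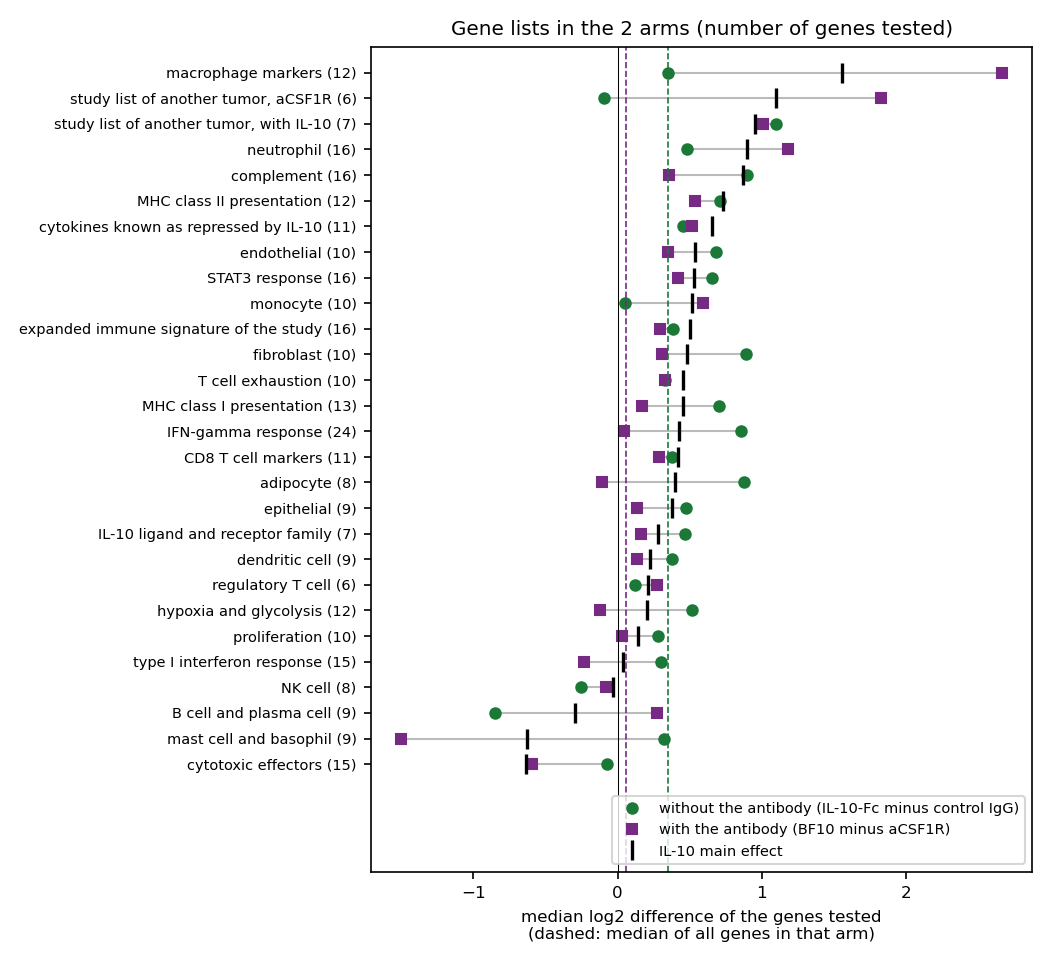
Median log2 difference of each gene list without the antibody (circles), with it (squares) and in the main effect (bars), with the number of genes tested in brackets and dashed lines at the medians of all genes (0.35 and 0.06). Macrophage markers lie furthest apart (0.35 and 2.67), interferon-gamma genes reach 0.86 without the antibody and 0.04 with it, and mast cell genes reach -1.50 with it.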

How the data were processed

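RNA of 12 orthotopic 4T1 tumors (4 groups of 3, grouped by sample titles) was extracted with TRIzol, made into stranded mRNA libraries (TruSeq) and sequenced on a NextSeq 550. The authors deposited FPKM values for 55401 genes, and 4 tables of their own DESeq2 comparisons (log2 fold changes with errors, p-values and mean normalized counts) that were not used here. The submitters' processing notes name STAR 2.7.5a, RSEM 1.3.3, DESeq2 1.28.0 and the builds mm10 and GRCm38. The step that made the FPKM is not given in the sources used here. All 12 columns matched a sample by name and 0 were left over.

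As FPKM are not counts, count models were left out. The methods of the study give only a range of reads per sample, so the reads of each single library are unknown. Each library was scaled to TPM, and genes that reached 1 TPM in 3 or more libraries were kept (15504 of 34194 above 0). log2(TPM + 1) was fitted with limma 3.58.1 (eBayes with trend, R 4.3.3), with 1 mean per group, 8 residual degrees of freedom (7 with the set term) and Benjamini-Hochberg adjustment over all 15504 genes. Every adjusted p comes from limma. The pipeline was tested on simulated data. Replicates are separate tumors, so p-values measure the spread between them.

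Named genes were, among protein-coding genes with a mean TPM of at least 2, the 10 largest called rises, the 10 falls with the smallest p (none was called), the 5 genes per direction with the smallest larger p of both arms, the 5 largest called interactions and, for negative ones, the 3 smallest p, the ligands and receptors, and the ends of each list. Genes outside this rule (Tmsb15a, Acp5, Ctsk, Gbp5 and further list members used as examples) were chosen after their values were seen. The comparison, the gene lists and the library sets were chosen with earlier results of these data known. Motifs were searched in 250 bases of RefSeq sequence with Python 3.11.15. Alternatives were another pseudocount, FPKM unscaled, median of ratios scaling, other filters, the library set as a term, each set alone, no interaction term, sample quality weights, no trend, no minimum fold, a replicate block and each library left out.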

Additional observations from a re-analysis of the deposited data

Results flagged for a closer look

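Within the 6 tumors given IL-10, 4 of the named genes had a tumor far from the others in a Dixon test, which chance flags in about 1 in 20 groups. Atp6v0d2 was highest in BF10 3 at 28.01 TPM. Clec5a was lowest in IL-10-Fc 2 at 30.26 TPM. Tslp was highest in BF10 7 at 4.223 TPM. Cp was lowest in BF10 3 at 37.87 TPM.

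The IL-10 difference itself differed between the arms of the design in 45 genes by the interaction test in limma. Among named genes the interaction in log2(TPM + 1) was 4.97 for Ccl12, 4.20 for C1qc, 4.08 for C1qa, 3.96 for Msr1, 3.87 for Slamf9, 3.29 for Lair1 and 3.26 for Clec5a. In each of these genes the aCSF1R tumors were the low group, and the macrophage marker list summed to 132 to 941 TPM there against 2197 to 4174 TPM over the other groups. Its part in these results was not tested.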

How the results depend on the processing

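The number of called genes depended strongly on the model, and the direction of most named genes did not. The main effect called 22 genes, against 9 with no filter, 216 with the library set as a term, 1 in lower-sum and 0 in higher-sum libraries only, 0 with no interaction term, 12 without trend and 0 with the replicate block (2 to 18 leaving out 1 library). Without the antibody the count of 1 became 0 with a pseudocount of 0.1, on FPKM, at a mean TPM of at least 5, in higher-sum libraries, without trend and with the block, 2 with no filter and in lower-sum libraries and 4 with the set term (0 to 1 leaving out 1 library). With the antibody 114 became 437 with the set term, 0 in higher-sum libraries and 1 with the block (54 to 108 leaving out 1 library, 54 without BF10 3, 61 without aCSF1R 6 and 72 without BF10 7). The interaction count of 45 became 27 with no filter, 188 with the set term, 3 in lower-sum and 0 in higher-sum libraries and 0 with the block (10 to 52 leaving out 1 library). Sample quality weights, by the gene-by-gene method because the default did not converge, called 3031, 9009, 383 and 8459 genes in the 4 contrasts, with weights from 0.0848 to 8.47 per library. These were 2891 higher and 140 lower in the main effect, 8235 and 774 without the antibody, 342 and 41 with it, and 867 and 7592 in the interaction, whose balance was thus opposite to the 44 and 1 of the unweighted fit. Median of ratios scaling called 31, 1, 141 and 41 genes, of which 4, 0, 62 and 12 were calls on TPM. Where 0 genes were called, 114 to 4163 had an unadjusted p below 0.05 in limma. Fits on 1 library set or without 1 library hold fewer samples, and the block takes degrees of freedom, whereas the cause was not tested for the other settings with 0 calls (no interaction term, pseudocount 0.1, FPKM, mean TPM of at least 5, no trend). Deviations of same-numbered tumors had r of -0.663 to 0.417 over 7 pairs, with 2 above 0.1. Those 2 pairs lay within a library set (0.417 and 0.349), and all pairs across sets were negative, whatever their numbers. The sign of r thus followed the library set, so this check cannot decide whether the numbers mark pairs. The main fits did not take them as pairs, and the replicate block is given as the alternative.

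Among named genes, signs turned where differences were near 0. Gbp9 (main effect -0.0049) was at 0.0071 in higher-sum libraries, 0.0288 with quality weights, 0.0766 with the replicate block and -0.0578 to 0.0464 without single libraries. Gbp6 was at -0.0023 after median of ratios scaling. Il10 was at -0.11 after that scaling, -0.23 in higher-sum libraries and -0.0275 (without control IgG 5) to 0.28 leaving out 1 library. Csf1 was at -0.12 in lower-sum libraries. Il34 was at -0.11 after median of ratios scaling, -0.21 in lower-sum libraries and -0.0731 (without aCSF1R 8) to 0.34 leaving out 1 library. With 3 tumors per group and no read counts, a missing call does not show that a gene did not differ.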

Other observations

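Osteoclast genes beyond the named ones were looked at with a list of 26 genes that was drawn up after the values were seen, so its counts are a description. All 25 tested genes were higher with IL-10 (Calcr was under the limit on low values), 4 were called and 9 with the library set as a term (0.135% and 1.36% of all genes were called higher), and 7 separated 6 tumors from 6 (0.206% of all genes). The median was 1.01, with 0.80 without the antibody (0.43 with the set term) and 1.26 with it, against 0.35 (0.10 with the set term) and 0.06 for all genes. The summed level was 527 to 1144 TPM in control IgG, 1602 to 1819 in IL-10-Fc, 366 to 956 in aCSF1R and 1173 to 3228 in BF10, so that the tumors with IL-10 lay above those without. Slc9b2, a sodium-proton exchanger of osteoclasts, had the largest difference, 2.58 ± 0.46 (adjusted p = 0.084 in limma), and Ckb, a creatine kinase, had 2.24 ± 0.41 (adjusted p = 0.088). Several members (Csf1r, Mmp9, Itgav, Fos) are also expressed by macrophages or other cells of the tumor, and the list does not name a cell type.

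Genes of osteoblasts and bone matrix did not share the pattern. Of 8 tested in a list of 12, also drawn up after the values were seen, 4 were higher and 0 were called, with a median of -0.02. Bglap, Bglap2, Sp7 and Alpl, which define osteoblasts, were under the limit on low values.

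The granzyme cluster on chromosome 14 was also listed after its values were seen, so its direction is a description. The 6 tested genes (Gzmn was under the limit) had negative differences in both arms, with medians of -1.72 without the antibody and -1.25 with it, and 0 were called. In the main effect with the set term 1 was called, as were 1.39% of all genes. Whether this reflects fewer lymphocytes that express these granzymes was not tested. CD8 T cell markers had medians of 0.38 and 0.28 in the same arms, against 0.35 and 0.06 for all genes. Without the antibody their median was 0.21 with the set term, against 0.10 for all genes, and 0 of them were called.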
